A study of Mus musculus with 3 samples.

Results

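The FOS, JUN and EGR immediate early factors were examined in ST2, a stromal cell line from mouse bone marrow with osteoblast and adipocyte potential. The genes were picked by name, with earlier results of these data known, as Fos, Fosb, Fosl1, Fosl2, Jun, Junb, Jund, Egr1, Egr2 and Egr3, and each of the 10 names had a single row among the 51826 rows of the deposited table. There were 3 libraries, 1 in each group, and in all of them the cells had received both a plasmid and an siRNA with lipofectamine 3000, the siRNA at 30 nM. Control cells had empty vector with control siRNA, NELL2-overexpressing cells (called NELL2 cells here) had the NELL2 construct with control siRNA, and Fn1 knockdown cells had empty vector with siRNA against Fn1, which encodes fibronectin. Where 3 values of a gene stand together without names, they are those of the control, NELL2 and Fn1 knockdown cells in that order. The question put to these libraries was which signaling genes respond to the secreted protein NELL2 and to loss of fibronectin. No group had a second library, so differences between cultures were not measured, and each value below compares single libraries without a p-value. The time from transfection to harvest is not given in the sources used here.

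Immediate early genes are transcribed within minutes of a growth factor, adhesion or stress signal, without new protein synthesis, and their messenger RNAs are short-lived. Kinases of the MAP kinase relay act on factors already bound at the promoters, chiefly serum response factor with its ETS partners and CREB. FOS proteins pair with JUN proteins through a leucine zipper to form AP-1, JUN proteins can also pair with each other, and EGR proteins bind GC-rich DNA through zinc fingers. In bone, Fosl1 and Fosl2 (FRA-1 and FRA-2) and splice forms of Fosb are known to favor osteoblast bone formation, and Fos is needed for osteoclasts.

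RefSeq promoter windows (build GRCm38.p6, from 250 bases before to 50 bases after a transcript start) were matched for 7 of the 10 genes, in 11 windows. Fosl1, Egr1 and Egr3 were not matched. The sites below are shown because they are the kinds of element through which these genes read kinase signals or one another, with 30 bases each, written 5′ to 3′ on the strand of the gene and with the motif in capitals. A CREB half-site, TGACG, lay 66 bases before the start of Fos (chr12:85473812-85473841, plus strand) and 60 bases before that of Fosb (chr7:19310088-19310117, minus strand), both outside any annotated gene. A CArG box, which serum response factor binds, lay 72 bases before a start of Egr2 (chr10:67537787-67537816, plus strand), within an intron of longer Egr2 transcripts. The GCGNGGGCG motif of EGR proteins lay 50 bases before the start of Fosb (chr7:19310076-19310105, minus strand), so that the Fosb windows shown overlap.
Fos, TGACG: agttccgcccagTGACGtaggaagtccatc
Fosb, TGACG: tggagttgcgggTGACGcaagcgcgggggc
Egr2, CArG box: gttcctcagtCCATATATGGgcagcgacgt
Fosb, GCGNGGGCG: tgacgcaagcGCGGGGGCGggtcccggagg

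Both strands of all 32851 windows were searched. TGACG was held by windows of 4 of the 7 genes (Fos, Fosb, Junb and Egr2) and by 20.81% of all windows, whereas the full palindrome TGACGTCA, which contains it, was held by none of the 7 and by 1.79% of all windows. A CArG box was held by Egr2 alone, against 1.63% of windows, and GCGNGGGCG by Fosb and Fosl2, against 5.55%. The TATA box TATAAA was held by Fos and Junb and by 13.62% of all windows. The AP-1 motif TGANTCA was in none of the members' windows and in 7.81% of all windows. Members are counted by gene, some with several windows, and the background by window, so the shares are not in the same unit. These matches describe letters in the windows only.

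The libraries were first checked against their labels. Fn1 was at 2802 FPKM in control cells, 2489 FPKM in NELL2 cells and 137 FPKM after knockdown, and Nell2 was at 0.640, 326 and 1.06 FPKM. FPKM scales fragments to transcript length and to library size, so levels of different genes can be compared. Depth estimated from the low values was 23000000, 23700000 and 24200000 fragments. All 11 stromal markers matched were above 1 FPKM in each library, with sums between 2721 and 3191 FPKM. Endothelial markers summed to at most 2 FPKM and epithelial markers to at most 0.412 FPKM.

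In the control library the members ranged from 0.794 FPKM for Fosb to 52.6 FPKM for Jund, the JUN protein that is usually made constitutively. By mean level over the 3 libraries, the order was Jund, Fosl2, Jun, Junb, Fosl1, Egr1, Fos, Egr3, Egr2 and Fosb. The ranges of neighbors over the 3 libraries overlapped for Jund and Fosl2, for Fosl2 and Jun, for Jun and Junb, and for Egr3 and Egr2, so these pairs have no settled order. Fosl1, Egr1 and Fos each stood clear of their neighbors. Fosb, at 1.08 FPKM or less, and Egr2, at 1.21 FPKM or more, did not overlap but were close. The lowest Egr2 value rests on about 26 fragments, so the order of Egr2 and Fosb is not settled either. Of the genes at 1 FPKM or more in the control, 89.5% were below Jund, 80.8% below Fosl1, 67.3% below Egr1, 29.8% below Fos and 5.8% below Egr2.

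**Figure D1:**
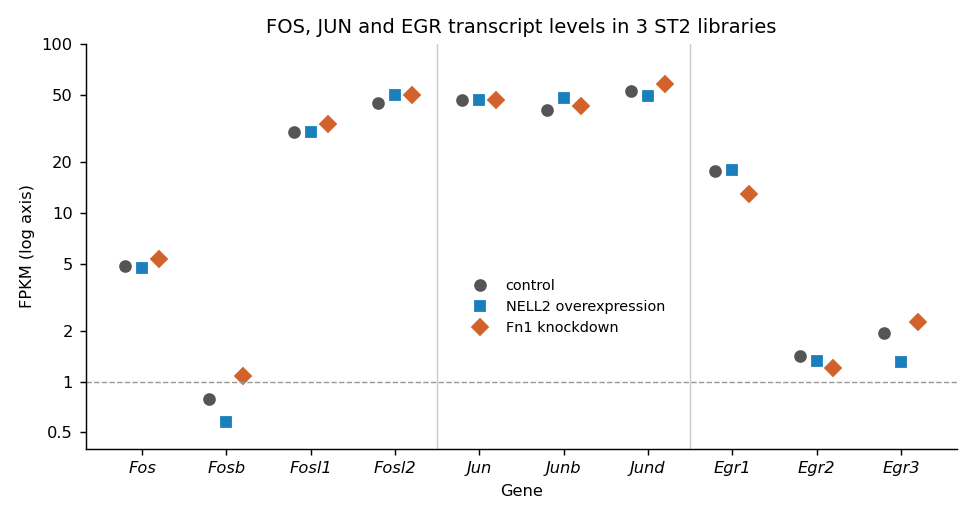
FPKM (log axis) of the 10 genes, one point per library, with a dashed line at 1 FPKM and vertical lines between the FOS, JUN and EGR families. Fosl1, Fosl2 and the 3 Jun genes sit between 30.2 and 57.9 FPKM, Egr1 between 13.0 and 18.0, and Fosb, Egr2 and Egr3 between 0.574 and 2.26.

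Among the FOS partners of AP-1, the 2 FOS-related genes made up most of the transcript level. Fosl2 (chromosome 5, 32135801 to 32157842, plus strand) held 55.5% of the summed FPKM of the family in the control, 58.5% in NELL2 cells and 55.6% after Fn1 knockdown. Fosl1 (chromosome 19, 5447547 to 5455946, plus strand) held 37.5%, 35.3% and 37.3%. Fos itself (chromosome 12, 85473890 to 85477273, plus strand) held 6.0%, 5.5% and 5.9%, and Fosb (chromosome 7, 19302696 to 19310051, minus strand) 1.0%, 0.7% and 1.2%. The level of Fosl1 and Fosl2 together was 13.2, 15.3 and 13.1 times that of Fos and Fosb together.

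The JUN family was divided more evenly. In the control, Jund (chromosome 8, 70698949 to 70700616, plus strand) held 37.6% of its summed FPKM, Jun (chromosome 4, 95049034 to 95052222, minus strand) 33.5% and Junb (chromosome 8, 84974484 to 84978718, minus strand) 28.9%. The summed level was 140 FPKM in control cells, 144 in NELL2 cells and 147 after Fn1 knockdown, which was 1.74, 1.68 and 1.64 times the FOS sum of 80.6, 85.8 and 89.6 FPKM.

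In the EGR family, Egr1 (chromosome 18, 34859823 to 34864984, plus strand) made up 83.9% of the summed FPKM in control cells, 87.2% in NELL2 cells and 78.9% after Fn1 knockdown. Egr2 (chromosome 10, 67535475 to 67542188, plus strand) held 6.8%, 6.5% and 7.3%, and Egr3 (chromosome 14, 70077203 to 70082614, plus strand) 9.3%, 6.4% and 13.7%. The family sum was 21, 20.6 and 16.4 FPKM, lowest in the Fn1 knockdown library. Coordinates are from GENCODE M21 on GRCm38, the build named in the submitters' processing notes.

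**Figure D2:**
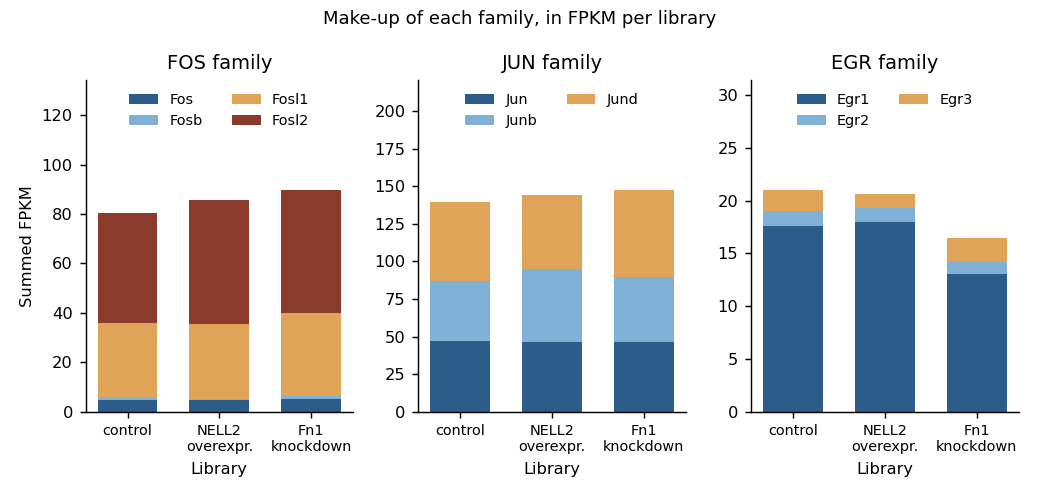
Summed FPKM of the FOS, JUN and EGR families in each library (bars start at 0), divided by gene. Fosl2 and Fosl1 fill most of the FOS bars, the JUN bars are split between 3 genes of similar level, and Egr1 fills most of the EGR bars, of which the Fn1 knockdown bar is the lowest at 16.4 FPKM.

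Members were then compared between libraries. A gene was called when log2(FPKM + 1) differed by 1 or more, a 2-fold difference on that scale, with 1 FPKM or more in either library. By this rule 0 of the 10 members were called in NELL2 cells, where 0.652% of 12572 genes were called. After Fn1 knockdown it was again 0 of 10, beside 1.23% of 12574 genes. Between the Fn1 knockdown and the NELL2 library it was 0 of 10, beside 1.29% of 12596 genes. With background shares this small, a count of 0 among 10 does not set the members apart from other genes. Fosb was under 1 FPKM in both the control and the NELL2 library, so 9 members could be called there. A 1.5-fold cutoff also called 0 of 10 in each comparison, with background shares of 2.59%, 6.24% and 6.4%.

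Counting error was approximated from the estimated depth and transcript length, as an exact 95% (Clopper-Pearson) interval of the ratio of fragments. It covers counting error only, not differences between cultures. With NELL2 overexpression the interval excluded equality with the control for 3 of 10 members, and for 27.1% of 12256 genes. After Fn1 knockdown it did so for 4 of 10 members and 47.4% of 12256 genes, and between the treated libraries for 6 of 10 and 46.6% of 12278 genes. Since such differences were common among all genes, passing this interval does not set the members apart.

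**Figure D3:**
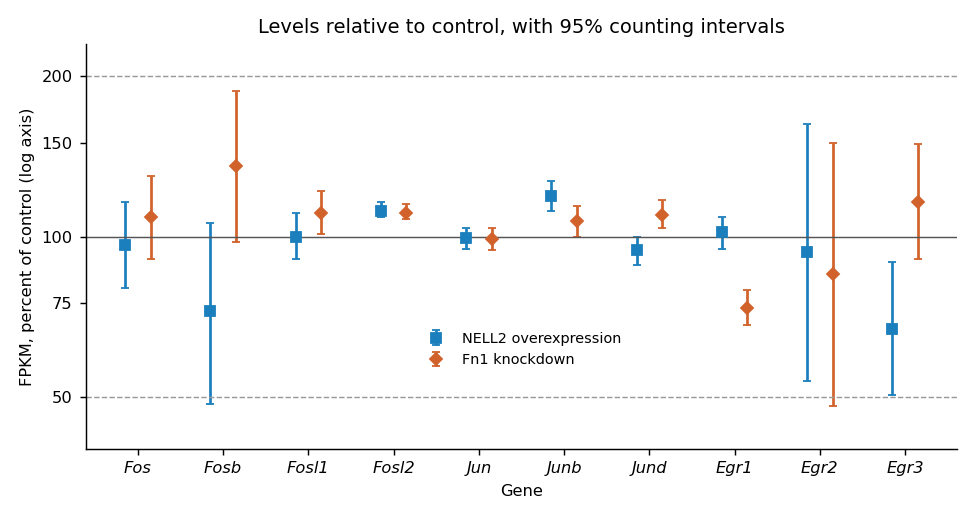
Level of each gene as percent of the control (log axis) in NELL2 cells (squares) and after Fn1 knockdown (diamonds). Bars are approximate 95% counting intervals, and dashed lines mark 2-fold differences. Every point lies inside the dashed lines. The intervals of Fosb, Egr2 and Egr3 are the widest, and Egr1 after Fn1 knockdown is at 73.6% with an interval from 68.2% to 79.5%.

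Egr1, which is induced through serum response factor and binds GC-rich promoters, had the log2(FPKM + 1) difference from the control farthest from 0 among the members. This order depends on the pseudocount, since with 0.1 in place of 1 Egr3 in NELL2 cells was at -0.54 and Egr1 after Fn1 knockdown at -0.44, and by plain ratio Egr3 and Fosb in NELL2 cells, at 67.1% and 72.4% of the control, were also farther below it. It was at 17.6 FPKM in control cells, 18.0 FPKM in NELL2 cells and 13.0 FPKM in Fn1 knockdown cells. The NELL2 and control libraries were close together, and the Fn1 knockdown library was low. The Fn1 knockdown level was 73.6% of the control (counting interval 68.2 to 79.5%), a log2 difference of -0.41, and 72.3% of the NELL2 level. A difference at least this far from 0 was present in 14.0% of all genes tested in that comparison and in 12.4% of those at 10 FPKM or more. Macrophage and blood cell markers were also lower in this library, with a sum over 9 genes of 18.4 FPKM in control cells, 20.6 FPKM in NELL2 cells and 10.4 FPKM in Fn1 knockdown cells. Of those 9 genes, 6 were below 1 FPKM in all libraries, Cd3e and Hbb-bs were listed at 0, and the pan-leukocyte gene Ptprc was at 0.0633 FPKM or less. The macrophage genes Lyz2, at 11.8, 13.9 and 7.22 FPKM, Cd68, at 4.08, 3.54 and 1.57 FPKM, and Tyrobp, at 0.969, 0.874 and 0.220 FPKM, were lower in Fn1 knockdown cells, and Csf1r was at 1.06, 1.23 and 1.06 FPKM. Their part in the Egr1 value was not tested, and in bulk RNA fewer cells of a type cannot be told apart from less RNA per cell.

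The genes at 10 FPKM or more whose pair of log2 differences from the control lay nearest to that of Egr1 were Cyba, Loxl2 and Uchl3. Cyba was at 55.9, 57.1 and 41.9 FPKM, Loxl2 at 308, 315 and 229 FPKM, and Uchl3 at 20.7, 21.1 and 15.4 FPKM. With 3 libraries a pattern has only 2 differences, and 148 of 6523 genes lay within 0.1 of Egr1 on the log2 scale, so the likeness is common.

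Egr3 and Egr2 were near the low end of the table. Egr3, induced by many of the same signals as Egr1, was at 1.95 FPKM in control cells, 1.31 FPKM in NELL2 cells and 2.26 FPKM in Fn1 knockdown cells. The NELL2 library was the lowest, at 67.1% of the control (counting interval 50.5 to 89.7%, about 85 against 122 fragments), with a log2 difference of -0.35. A difference this far from 0 was present in 8.0% of genes tested. After Fn1 knockdown Egr3 was at 116% of the control, with an interval from 90.7 to 149% that includes equality. Egr2, known for its part in myelination, was at 1.42, 1.33 and 1.21 FPKM, and its intervals, from 53.6 to 163% and from 48.2 to 150% of the control, both included equality. Its gene models differ in length, and the longest coding transcript (2965 bases against a median of 902) gave narrower intervals, from 69.9 to 126% and from 63.0 to 115%, so the precision for Egr2 depends on the length assumed. Thus Egr1 was low and Egr3 high in the Fn1 knockdown library relative to the NELL2 library, Egr3 at 172% (131 to 227%) of the latter.

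Junb, a JUN protein that restrains some AP-1 targets and activates others, was at 40.4 FPKM in control cells, 48.1 FPKM in NELL2 cells and 43.1 FPKM in Fn1 knockdown cells. The NELL2 library was the highest, at 119% of the control (112 to 127%), a log2 difference of 0.25 that 15.3% of genes tested equaled or exceeded in size. The exons of Junb share 173 bases with the antisense gene Prdx2, at 95.6, 106 and 96.8 FPKM in the same order. The sources used here do not make clear whether strand was used in counting, and without it reads of the shared bases cannot be told apart.

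Jun, the archetypal AP-1 partner, was the steadiest member, at 46.8, 46.6 and 46.3 FPKM. Its highest level was 1.01 times its lowest, and the intervals against the control ran from 95 to 104% in NELL2 cells and from 94.3 to 104% after Fn1 knockdown. The antisense gene Junos, at 1.93, 1.54 and 2.5 FPKM, shares 232 bases with it. Jund was at 52.6 FPKM in control cells, 49.5 FPKM in NELL2 cells and 57.9 FPKM in Fn1 knockdown cells. The Fn1 knockdown library was the highest, at 110% of the control (104 to 117%) and 117% of the NELL2 library (110 to 124%). Over 52.6% of its exonic bases Jund overlaps the antisense gene Gm11175, which was at 1.41 FPKM or less.

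All 4 FOS genes had a higher listed level after Fn1 knockdown than in the control, from 109% for Fos to 136% for Fosb, and the intervals of both include equality. Of all genes tested in this comparison, 49.5% were higher. Fosl2 was at 44.7 FPKM in control cells, 50.2 FPKM in NELL2 cells and 49.8 FPKM in Fn1 knockdown cells, so that the control was the lowest library, and Fn1 knockdown was at 99.1% (96 to 102%) of the NELL2 level. Its levels were 112% (109 to 116%) and 111% (108 to 115%) of the control, from about 6713 fragments in the control. In size, such log2 differences (0.16 and 0.15) were equaled or exceeded by 27.6% and 51.8% of the genes tested. Fosl1 was at 30.2, 30.3 and 33.4 FPKM, and the last was 111% of the control (101 to 122%). Its exons share 1163 bases, 57.2% of their length, with the antisense gene Ccdc85b, at 23.6, 23.7 and 29.9 FPKM, where the Fn1 knockdown library was likewise the highest.

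Fos, the classical immediate early gene, was at 4.87 FPKM in control cells, 4.70 FPKM in NELL2 cells and 5.30 FPKM in Fn1 knockdown cells. Both intervals included equality with the control (80.1 to 116% and 90.9 to 130%). Fosb was at 0.794, 0.574 and 1.08 FPKM, about 66, 49 and 94 fragments. Neither treated library was separable from the control at this depth (48.6 to 106% and 97.7 to 188%), though the treated libraries differed from each other by more than counting error, with Fn1 knockdown at 188% (132 to 272%) of the NELL2 level. That ratio was the largest between any pair of libraries for a member, at one of the lowest levels.

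Over all 10 members, the median log2 difference from the control was -0.025 in NELL2 cells, with 4 members higher and 6 lower (Fosl1, at 0.005, changed sign with median-of-ratios scaling), and 0.119 after Fn1 knockdown, with 7 higher and 3 lower. The medians of all genes tested were 0.007 and -0.003. The median size of the difference, regardless of sign, was 0.069 and 0.140 for the members and 0.094 and 0.159 for all genes tested. The 2 comparisons use the same control library, so a high or low control value enters both. The summed level of the 10 members was 241 FPKM in control cells, 251 FPKM in NELL2 cells and 253 FPKM in Fn1 knockdown cells.

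**Figure D4:**
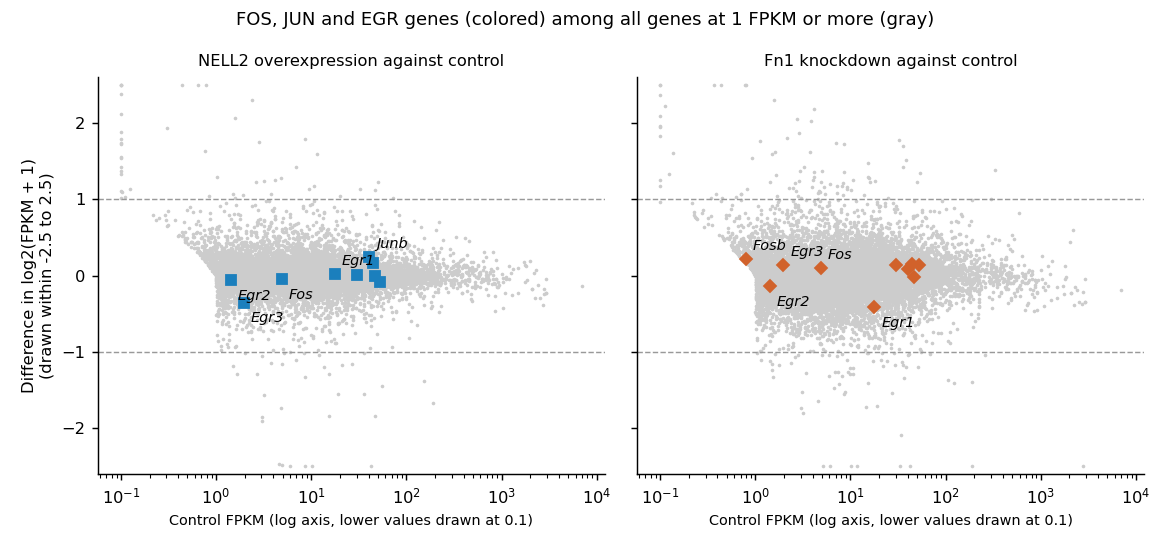
Difference in log2(FPKM + 1) from the control against control FPKM (log axis) for each gene reaching 1 FPKM in at least 1 of the libraries (gray) and for the FOS, JUN and EGR genes (colored). Fosb is not drawn for NELL2 cells, since it was under 1 FPKM in both libraries. Points beyond the limits of the axes are drawn at the limits, and dashed lines mark the 2-fold rule. The members lie within the gray band, from -0.35 to 0.25 in NELL2 cells and from -0.41 to 0.21 after Fn1 knockdown.

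Genes around the members were taken from lists fixed by role. The partners and relatives comprised 16 genes, among them other zipper proteins, the EGR relative Egr4 and the EGR corepressors Nab1 and Nab2, and 0 of the 13 at 1 FPKM or more were called in either comparison with the control. Their median log2 difference was 0.040 in NELL2 cells and 0.071 after Fn1 knockdown. Nab2, itself an EGR target, was at 50.8, 49.1 and 50.2 FPKM, Nab1 at 21.8, 20.6 and 23.2 FPKM, and Cops5, a coactivator of JUN, at 51.0, 52.5 and 53.6 FPKM. Jdp2, which represses AP-1, was at 25.1, 25.0 and 18.8 FPKM, lower in the Fn1 knockdown library alone (log2 difference -0.40).

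Of the 9 factors that act on immediate early promoters, 0 were called and 8 were lower than the control in each comparison, with medians of -0.066 and -0.051. Of all genes tested, 52.3% and 49.5% were higher than the control, and as both comparisons use the same control library, its values enter both counts. Srf, the serum response factor, was at 28.7, 26.9 and 26.9 FPKM, its ETS partner Elk3 at 41.2, 38.8 and 39.7 FPKM, and its coactivator Mkl1 at 21, 18.5 and 20.7 FPKM. The lowest difference in this list was -0.19 in NELL2 cells and -0.39 after Fn1 knockdown, both in Atf1, a CREB relative, at 17.2, 15 and 12.9 FPKM (Atf1 was named after its values were seen).

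In the MAP kinase relay, 0 of 23 genes at 1 FPKM or more were called, with medians of 0.006 and -0.022. The ERK kinase gene Mapk3 was at 52.7, 54.1 and 41.8 FPKM. The kinases that activate it, Map2k1 and Map2k2, were at 54.9, 65.5 and 63.6 FPKM and at 55.9, 58.4 and 60.9 FPKM. The differences farthest from 0 in NELL2 cells were in the p38 kinase Mapk14 (21.4, 12.2 and 13.4 FPKM) and the JNK kinase Mapk8 (13.7, 8.30 and 8.29 FPKM), with log2 differences of -0.76 and -0.66. After Fn1 knockdown they were at -0.64 and -0.66, and both comparisons share the control value. These 2 kinases were named after their values were seen.

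Feedback inhibitors, which switch the relay off or shorten the life of the messages, had medians of -0.005 in NELL2 cells and 0.119 after Fn1 knockdown over 19 genes, with 0 called in either. Errfi1, an inhibitor of the EGF receptor, was at 63.0, 67.7 and 34.5 FPKM, a log2 difference of -0.85 after Fn1 knockdown. Zfp36l2, which promotes messenger RNA decay, was at 49.0, 48.8 and 39.7 FPKM, and the MAP kinase phosphatase Dusp1 at 35.2, 30.6 and 38.3 FPKM. Between the treated libraries 1 gene was called, the JNK and p38 phosphatase Dusp10, at 8.84, 6.58 and 14.5 FPKM, with a log2 difference of 1.03 (named after its values were seen).

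Other immediate early genes numbered 28, all at 1 FPKM or more, and 0 were called in either comparison with the control. The medians were 0.050 in NELL2 cells (17 higher, 11 lower) and 0.075 after Fn1 knockdown (18 higher, 10 lower). Of all genes tested, 52.3% and 49.5% were higher, and 0.652% and 1.23% were called. The shared control library enters both counts. Ctgf and Cyr61, matricellular proteins that are also induced by mechanical signals, were at 527, 496 and 733 FPKM and at 383, 380 and 424 FPKM. The prostaglandin synthase Ptgs2 was at 147, 182 and 160 FPKM, and the growth arrest gene Gadd45g at 99.1, 104 and 92.7 FPKM. Thus Ctgf, at far higher levels than Egr1, was highest in the library where Egr1 was lowest. The list did not share 1 direction there, since 10 of the 28 genes were, like Egr1, lower than the control.

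Genes known to be bound or regulated by AP-1 had a median log2 difference of 0.169 in NELL2 cells, over 16 genes at 1 FPKM or more, and of 0.149 after Fn1 knockdown, over 17. In NELL2 cells 11 were higher and 5 lower than the control, and after Fn1 knockdown 13 were higher and 4 lower. Of all genes tested, 52.3% and 49.5% were higher, with medians of 0.007 and -0.003. Both comparisons use the same control library, so its values enter both medians. The stromelysin gene Mmp3 was called in NELL2 cells (3.22, 8.99 and 3.55 FPKM, log2 difference 1.24), and the cyclin gene Ccnd1 was called after Fn1 knockdown (262, 253 and 126 FPKM, -1.04). Mmp3 was also called lower in Fn1 knockdown than in NELL2 cells. Osteopontin, encoded by Spp1, was at 2008, 2283 and 2727 FPKM, Timp1 at 875, 1010 and 801 FPKM, Vim at 799, 743 and 804 FPKM, and Hmox1 at 450, 475 and 593 FPKM. By the same rule 0.652% of all genes tested were called in NELL2 cells and 1.23% after Fn1 knockdown. No FOS or JUN gene was among them. Whether AP-1 had a part in the Mmp3 and Ccnd1 values was not tested.

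Genes known as EGR targets had a median of 0.040 in NELL2 cells and of 0.239 after Fn1 knockdown over 11 genes, with 0 called. After Fn1 knockdown 10 of the 11 were higher than the control, whereas 49.5% of all genes tested were higher. The thrombospondin gene Thbs1 was at 2177, 2237 and 3302 FPKM, the cell cycle inhibitor gene Cdkn1a at 372, 367 and 396 FPKM, and the matrix protease gene Mmp14 at 172, 170 and 180 FPKM. Egr1 itself was lower in that library. Many of these genes respond to other factors as well, and no test was made of the list.

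**Figure D5:**
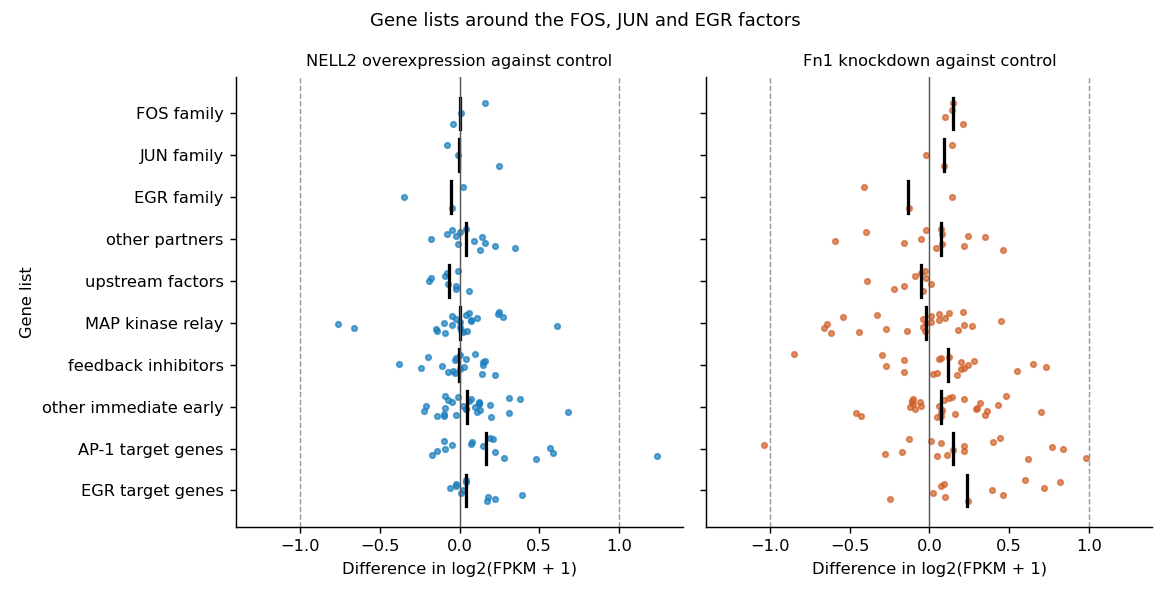
Difference in log2(FPKM + 1) from the control for each gene at 1 FPKM or more in the FOS, JUN and EGR families and in 7 lists of related genes (points), with the median of each list (black bar) and dashed lines at the 2-fold rule. The points past the lines are Mmp3 in NELL2 cells (1.24) and Ccnd1 after Fn1 knockdown (-1.04), both AP-1 targets, and no FOS, JUN or EGR gene reaches them.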

How the data were processed

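Polyadenylated RNA of 3 ST2 libraries was sequenced by the authors as paired ends of 150 bp on an MGISEQ-2000 instrument and mapped to the mouse transcriptome with HISAT2; the submitters' processing notes name GRCm38 and DESeq. The authors deposited FPKM per gene, which were used here. The FPKM program and the annotation are not given in the sources used here. The methods mention Strand pipelines for alignment and filtering, which does not settle whether fragments were counted by strand. Columns were assigned to samples by their titles. Differences were computed as log2(FPKM + 1) with Python 3.11.15 and pandas 2.3.3, and a gene was called at 2-fold with 1 FPKM or more in either library. This scale understates differences of low genes. Fragments were estimated from the most frequent small value of FPKM times length among genes with 1 transcript of 600 bases or more, and from the median length of coding transcripts in GENCODE M21. Intervals used SciPy 1.17.1. Named were all members, list genes called against the control, up to 4 further abundant genes per list, the 3 genes nearest in pattern to the member farthest from the control on the log2(FPKM + 1) scale, and others marked as named after their values were seen. Members and lists were chosen with earlier results of these data known. Of 170 list genes, Map2k7 and Itgam were left out because each had more than 1 row. Values of some list genes are not reported here.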

Additional observations from a re-analysis of the deposited data

How the results depend on the processing

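Under every setting tried (pseudocounts of 0.1 and 5, no filter, a filter of 5 FPKM, cutoffs of 1.5-fold and 4-fold, median-of-ratios scaling) 0 of the 10 members were called in each of the 3 comparisons. With a pseudocount of 1, the unfiltered setting gives the same calls by construction. Of 90 member differences recomputed with another pseudocount or scaling, 3 changed sign, all with scaling, whose factors were 1.003, 1.009 and 0.993: Fosl1 in NELL2 cells against the control, from 0.005 to -0.004, and Fosl2 and Jun between the treated libraries, from -0.013 to 0.011 and from -0.010 to 0.014. The largest recomputed difference was 0.80. With a pseudocount of 0.1 the member farthest from the control was Egr3 in NELL2 cells (-0.54), ahead of Egr1 after Fn1 knockdown (-0.44). Genes called over the whole table, 82 with NELL2 overexpression, 155 after Fn1 knockdown and 162 between the treated libraries, numbered 178, 358 and 353 with a pseudocount of 0.1, 26, 50 and 46 with a pseudocount of 5, 325, 784 and 806 at 1.5-fold, and 16, 22 and 19 at 4-fold; a filter of 5 FPKM gave 47, 118 and 111. Taking the longest coding transcript, chosen after seeing the data, left the counts of members beyond counting error at 3, 4 and 6. Depth limits Fosb, Egr2 and Egr3 most. No paired analysis was possible because there was 1 library for every group, and none could be left out.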
